A study of Saccharomyces cerevisiae with 13 samples.

Results

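Hsp90 and 7 of its co-chaperones were followed in budding yeast by disome-seq, monosome-seq and mRNA-seq. The 9 genes, taken by systematic name, were HSC82 and HSP82, which encode the chaperone itself, and STI1, CPR6, CPR7, AHA1, HCH1, SBA1 and CDC37, out of 5694 genes in the count tables. All 9 were also among the 4886 genes in a table of footprint positions from transcripts bound by 2 ribosomes. Disome-seq sequences the mRNA covered by a pair of stacked ribosomes (fragments of 55 to 65 nt), monosome-seq the mRNA covered by 1 ribosome (20 to 30 nt), and mRNA-seq random mRNA fragments (28 to 29 nt). The 3-AT libraries were labelled as strain S288C, grown in a histidine-free synthetic medium to which 100 mM 3-AT had been added (3-amino-1,2,4-triazole, an inhibitor of histidine synthesis). The rich medium libraries were labelled as BY4742 (MATα his3Δ1 leu2Δ0 lys2Δ0 ura3Δ0), grown in YPD, and all cultures were kept at 30 °C. Each assay had 2 libraries in each medium, and the footprints of transcripts with 2 ribosomes came from 1 further library labelled BY4742 in rich medium (the 2-ribosome library). Strain, medium and 3-AT change together in this design, so that their parts in any difference between 3-AT and rich medium cannot be told apart.

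Hsp90 is an abundant ATP-dependent chaperone that acts as a dimer late in the folding of kinases, hormone receptors and other client proteins. Its cycle is steered by co-chaperones: some hold the dimer open and bring clients, some speed ATP hydrolysis, and some stabilise the closed state. Budding yeast has a pair of near-identical Hsp90 genes, of which HSC82 is known as the constitutive and HSP82 as the stress-inducible copy, and many genes of the system are targets of the heat shock factor Hsf1.

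The tables held 21133 and 18790 disome footprints in 3-AT, against 47391 and 34707 in rich medium. The paper also describes shorter disome footprints, with a larger share in 3-AT than in rich medium. They lie outside the 55 to 65 nt counted here. For monosomes there were 230583 to 800994 footprints, for mRNA 544499 to 2836320 reads, and in the 2-ribosome library 401686 footprints. Levels are given as RPM, a gene's reads divided by the reads of its own table and multiplied by 1000000, and as RPKM, which is RPM per kilobase of coding sequence. Disome replicates differed most, with a chi-square per gene between replicates of 2.48 in 3-AT and 6.55 in rich medium (1 is pure counting error). This value was 1.84 and 1.38 for monosomes and 1.04 and 2.03 for mRNA, again for 3-AT and then rich medium. The marker genes went against some strain labels. LYS2, which is intact in S288C and deleted in BY4742, had no count in any of the 12 libraries of the count tables, the 3-AT ones included (it is listed at 0 in the rich medium mRNA table and not listed in the other tables), but 62 footprints in the 2-ribosome library. URA3, also deleted in BY4742, had 22 and 14 mRNA reads in 3-AT against 138 and 181 in rich medium. HIS3 had 934 and 578 mRNA reads in 3-AT, against 149 and 240 in rich medium. Of a pair of mating-type genes chosen after their values were seen, STE2, the α-factor receptor of a cells, had 47 footprints in the 2-ribosome library against 1 and 0 in rich medium monosomes, and MF(ALPHA)1, the α-factor gene of α cells, was not listed in the 2-ribosome library against 1648 and 1189. The groups are therefore called by medium below, and a difference of strain between the 2-ribosome library and the rich medium libraries cannot be told apart from the difference of assay.

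The 9 genes lie on 8 chromosomes of the R64 genome, and each has 1 coding exon. HSC82 (YMR186W) lies at XIII:632355-634472 on the + strand and has 705 codons. HSP82 (YPL240C) lies at XVI:96496-98625 on the - strand and has 709 codons. Their proteins were identical at 97.7% of 704 aligned residues, and their coding sequences at 92.3% of aligned bases. Reads with several alignments were discarded by the authors, and 81.7% of the 28-nt stretches of HSC82 and 81.8% of those of HSP82 occur once among all coding sequences. For 58-nt stretches these shares were 95.4% and 95.5%, while every stretch of the other 7 genes occurs once. The monosome and mRNA counts of both Hsp90 genes can therefore be cut by a similar share, and their disome counts by less.

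STI1 (YOR027W, XV:381053-382822, 589 codons) encodes the adaptor that bridges Hsp70 and Hsp90 and holds the Hsp90 dimer open. CDC37 (YDR168W, IV:790328-791848, 506 codons) encodes the co-chaperone that brings kinases to Hsp90. CPR6 (YLR216C, XII:572096-573211, 371 codons) and CPR7 (YJR032W, X:491081-492262, 393 codons) encode cyclophilins, which are prolyl isomerases, with TPR domains that bind the end of Hsp90. Their proteins were identical at 41.7% of aligned residues. AHA1 (YDR214W, IV:892875-893927, 350 codons) encodes the strongest known activator of Hsp90's ATPase, and HCH1 (YNL281W, XIV:108467-108928, 153 codons) encodes a shorter relative of its first part, with 39.9% identity to residues 1 to 156 of Aha1. SBA1 (YKL117W, XI:220324-220974, 216 codons) encodes the yeast p23, which binds the closed dimer and slows ATP hydrolysis. Histidine codons made up 0.567% of the codons of HSC82 and 0.564% of those of HSP82, with 4 in each, below the median of 2.05% over 5689 genes. The share was 2.78% in SBA1 (6 codons) and 2.57% in CDC37 (13 codons), above that median, and 1.27% to 1.96% in the other 5 genes.

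Heat shock elements, the binding sites of Hsf1, are built from units of GAA and its complement TTC, and the letters of such elements are shown here because the Hsf1 target genes are described below. The letters GAANNTTC or TTCNNGAA, each its own reverse complement, stood in the 500 bases before the start codon of 8 of the 9 genes (88.9%) and in 35.4% of the same windows of 5689 genes. The window of CPR7 did not hold them. The longer letters with a further unit, GAANNTTCNNGAA or TTCNNGAANNTTC, were found in the windows of STI1 and AHA1, 2 of the 9 genes, and in 1.48% of all windows. A match of letters is a description and was not tested as a binding site. One match of each gene is printed below from the R64 genome on the gene's own strand, with its letters in capitals; a longer match contains the shorter one.
HSC82, XIII:632296-632325: ttgttttctttTTCTTGAAacgctacagaa
HSP82, XVI:98674-98703: ctgtattagagTTCAAGAAatcatacctga
STI1, XV:380829-380858: gtatgataGAACATTCCAGAAaaaaaattc
CPR6, XII:573302-573331: ccctagctggaGAAAGTTCagacagaaaat
AHA1, IV:892566-892595: tcacaatgGAATTTTCTAGAAgaaaaaaca
HCH1, XIV:108290-108319: caggcctatttTTCTAGAAgacagaagaaa
SBA1, XI:220245-220274: gtattaacttgTTCGAGAAacctagtggac
CDC37, IV:789828-789857: atgcctacGAATATTCcaggatcaggtctt

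In mRNA-seq, AHA1 had the highest level per length among the 9 genes in 3-AT (2082 ± 39.3 RPKM, SD, n = 2), followed by HCH1 (1985 ± 52.4 RPKM), HSP82 (1687 ± 42.2 RPKM) and HSC82 (1638 ± 28.9 RPKM). The replicate ranges of HSP82 and HSC82 overlapped, as did those of STI1 (1296 ± 34.2 RPKM) and CPR6 (1276 ± 2.57 RPKM), and SBA1, CDC37 and CPR7 followed. In rich medium the mRNA order was HSC82 (1913 ± 20.6 RPKM), HCH1 (641 ± 11.1 RPKM), SBA1 (538 ± 43.2 RPKM), STI1 (473 ± 19.3 RPKM), CPR6, HSP82, AHA1, CDC37 and CPR7, with no overlap between neighbours. HSP82 was 6th in that order at 332 ± 11.1 RPKM, and CPR7 was last in both media, at 69.0 ± 12.3 RPKM in 3-AT and 85.7 ± 4.06 RPKM in rich medium. Monosome footprints per length were highest on AHA1 in 3-AT (3494 ± 509 RPKM) and on HSC82 in rich medium (3133 ± 133 RPKM), and lowest on CPR7 in both. Disome footprints per length were highest on HSP82 in 3-AT (3453 ± 113 RPKM) and on HSC82 in rich medium (25872 ± 8019 RPKM). The disome order in rich medium went on with SBA1 (879 ± 179 RPKM), STI1 (657 ± 99.8 RPKM) and HSP82 (627 ± 88.5 RPKM), and the ranges of the last pair overlapped. Together the 9 genes took 1.96% and 1.91% of the disome footprints in 3-AT, against 7.06% and 4.67% in rich medium, and the 2 libraries of each medium did not overlap those of the other. Their share of monosome footprints was 2.25% and 2.18% in 3-AT against 1.09% and 1.04% in rich medium, and their share of mRNA reads 1.47% and 1.43% against 0.721% and 0.737%. HSC82 carried the disome share in rich medium, with 3166 of 3345 and 1485 of 1622 footprints. Without HSC82, the other 8 genes took 1.68% and 1.63% of disome footprints in 3-AT against 0.378% and 0.395% in rich medium, the same order as in the other assays.

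**Figure D1:**
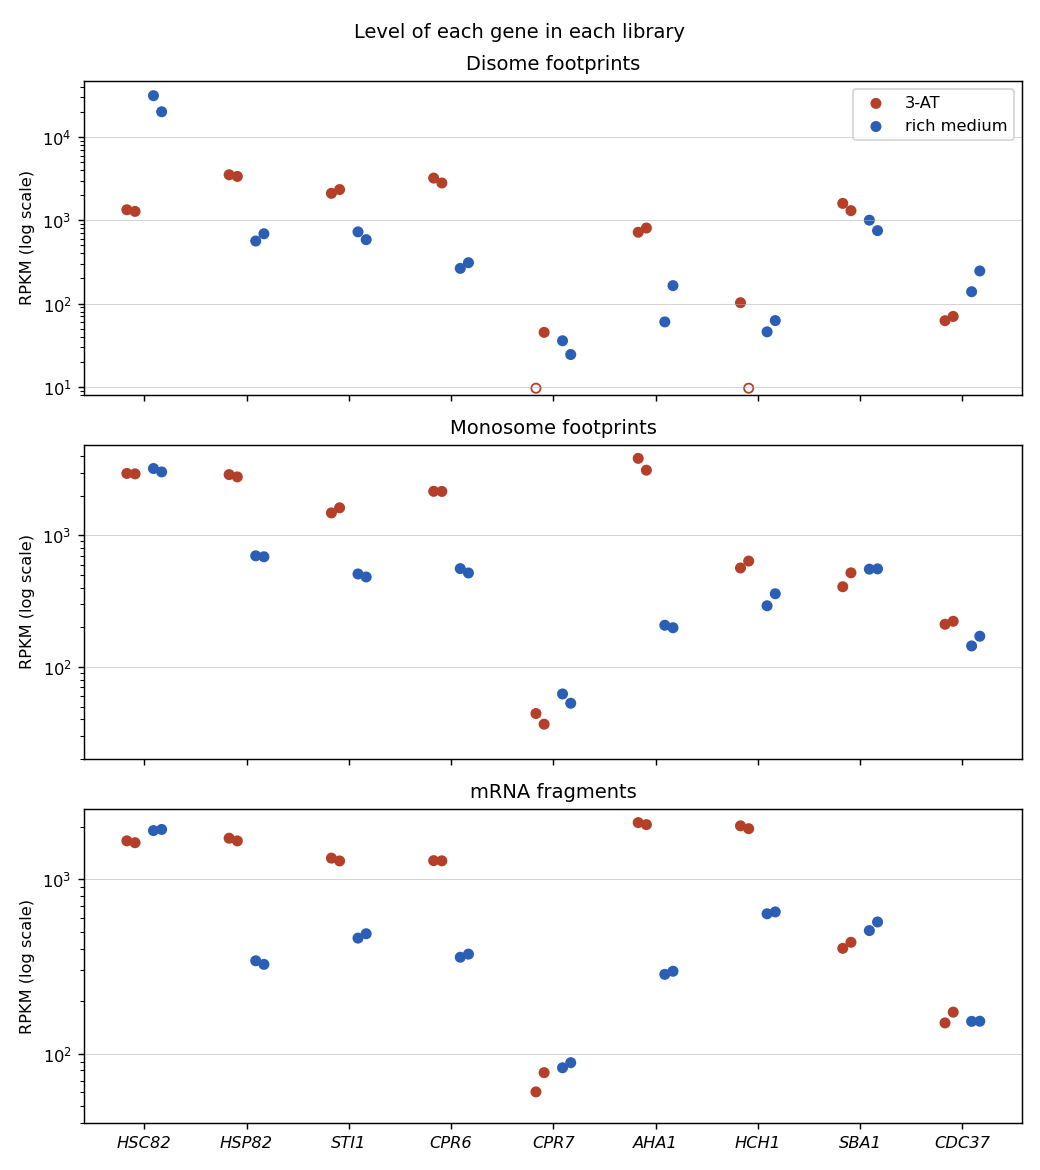
Level of each of the 9 genes in each library, in RPKM on a log scale, with 1 panel per assay, 1 point per library, 3-AT to the left of rich medium and open points at the foot of a panel for a count of 0. HSC82 disome footprints reached 31542 and 20201 RPKM in rich medium, above every other point, and lay at 1340 and 1281 RPKM in 3-AT.

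Hsp90's mRNA moved in opposite directions in 3-AT for the 2 copies. HSP82 mRNA stood at 3657 and 3530 RPM in 3-AT, against 725 and 691 RPM in rich medium. HSC82 mRNA stood at 3513 and 3427 RPM in 3-AT, against 4021 and 4083 RPM in rich medium. Both copies separated the media without overlap, HSP82 upwards and HSC82 by a small step downwards. HSP82 mRNA rose in 3-AT by a log2 fold change of 2.02 (SE 0.06, adjusted p = 8.68e-64, quasi-likelihood test of edgeR, p adjusted by Benjamini-Hochberg over 5290 genes) and HSC82 mRNA fell by 0.54 on the log2 scale (SE 0.06, adjusted p = 6.11e-16). Summed over both copies, Hsp90 mRNA reached 7170 and 6957 RPM in 3-AT against 4746 and 4774 RPM in rich medium.

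The co-chaperone mRNAs split as well. All 9 genes passed the test, 5 of them higher and 4 lower in 3-AT, while 37.7% of all 5290 genes tested were higher and 37.7% were lower; the median log2 fold change was 1.14 over the 9 genes and 0.01 over all genes. AHA1, the ATPase activator, had the largest increase, with 2222 and 2163 RPM in 3-AT against 300 and 312 RPM in rich medium (log2 fold change 2.52, SE 0.07, adjusted p = 1.20e-69). CPR6 had 1426 and 1421 RPM in 3-AT against 398 and 415 RPM in rich medium (1.49, SE 0.07, adjusted p = 9.87e-44). The levels of these 2 genes did not overlap between media. HCH1 (log2 fold change 1.31, SE 0.08) and STI1 (1.14, SE 0.06) rose too. SBA1 fell by 0.70 (SE 0.09, adjusted p = 4.23e-11) and CPR7 by 0.67 (SE 0.16, adjusted p = 5.43e-05) on the log2 scale. CDC37 stood at 228 and 263 RPM in 3-AT against 233 and 233 RPM in rich medium, with overlapping libraries; its log2 fold change of -0.26 (SE 0.10, adjusted p = 0.0153) turned to 0.06 (adjusted p = 0.618) with library totals as the scaling and was -0.15 (adjusted p = 0.385) without the first 3-AT mRNA library. Scaling by library totals moved the median of all genes by 0.32 on the log2 scale, and the other 8 genes kept their direction and call under it.

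Monosome footprints followed the same directions for 8 of the 9 genes. AHA1 had 4058 and 3300 monosome RPM in 3-AT, against 219 and 209 RPM in rich medium. HSP82 had 6179 and 5937 RPM in 3-AT, against 1491 and 1466 RPM in rich medium. HSC82 had 6272 and 6223 RPM in 3-AT, against 6835 and 6437 RPM in rich medium. None of these 3 genes overlapped between media, and the gap was widest for AHA1 and narrowest for HSC82. AHA1 footprints rose by a log2 fold change of 3.82 (SE 0.13, adjusted p = 6.17e-22), HSP82 by 1.75 (SE 0.10, adjusted p = 4.03e-16), CPR6 by 1.71 (SE 0.11), STI1 by 1.35 (SE 0.10) and HCH1 by 0.60 (SE 0.18, adjusted p = 0.00346). HSC82 fell by 0.38 (SE 0.10, adjusted p = 0.00115), SBA1 by 0.56 (SE 0.15, adjusted p = 0.00154) and CPR7 by 0.80 (SE 0.32, adjusted p = 0.0304) on the log2 scale. CDC37 had 0.18 (SE 0.16, adjusted p = 0.322). In all, 5 of the 9 genes were higher and 3 lower in 3-AT, beside 33.8% higher and 31.7% lower of 4169 genes tested, with a median of 0.60 over the 9 genes and 0.03 over all. The 3 falls did not pass with library totals (HSC82 -0.09, SBA1 -0.27, CPR7 -0.51), a scaling that moved the median of all genes by 0.29. Without the first rich medium monosome library, the calls of HSC82 (-0.37, adjusted p = 0.0564), CPR7 (-0.70, adjusted p = 0.133) and HCH1 (0.41, adjusted p = 0.142) were lost, and that of CPR7 was also lost without the second 3-AT monosome library (-0.64, adjusted p = 0.159).

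**Figure D2:**
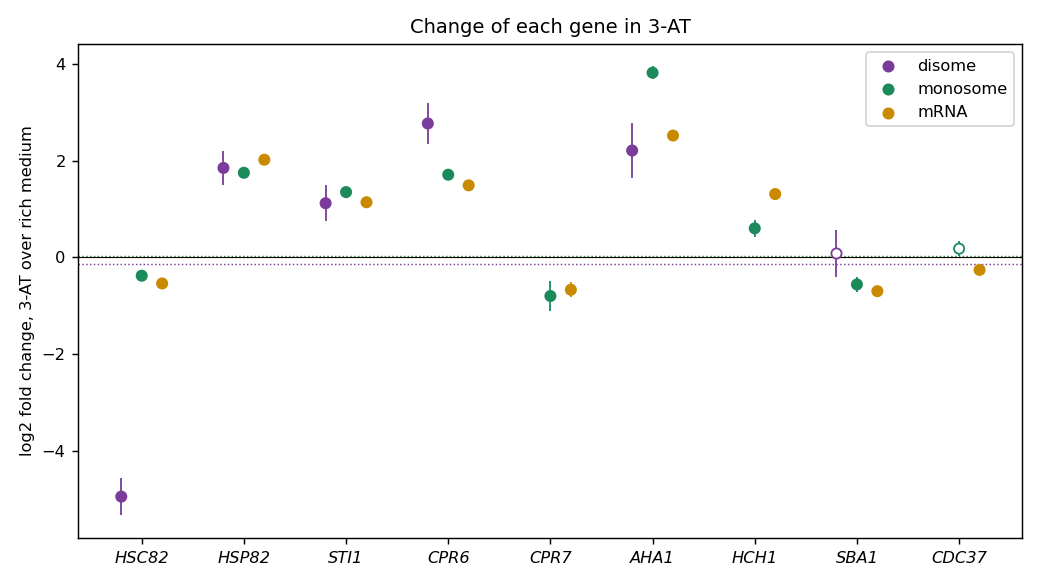
Log2 fold change of each gene, 3-AT over rich medium, for disome footprints, monosome footprints and mRNA, with bars of 1 SE on either side, open points where the adjusted p missed 0.05, dotted lines at the median of all genes, and no point where a gene was not tested. AHA1, HSP82, CPR6 and STI1 lie above 0 in all 3 assays, while HSC82 lies at -0.54 for mRNA, -0.38 for monosomes and -4.95 for disomes.

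Monosome footprints relative to mRNA, a measure of how densely a message is covered by ribosomes, were high for both Hsp90 genes. In 3-AT the log2 ratio of monosome to mRNA, relative to the other genes, was 1.30 for HSC82 and 1.21 for HSP82, and in rich medium it was 1.29 (SE 0.07, adjusted p = 9.68e-65) for HSC82 and 1.65 (SE 0.08, adjusted p = 7.90e-92) for HSP82. HSP82 was 60th from the top of 5099 genes in rich medium. CPR6 stood at 1.22 in 3-AT and 1.15 in rich medium, STI1 at 0.71 and 0.65, CDC37 at 0.90 and 0.61 and SBA1 at 0.60 and 0.63, all with adjusted p under the threshold of 0.05. The threshold was missed by SBA1 in 3-AT without the first 3-AT mRNA library (0.52, adjusted p = 0.0673). HCH1 was the only one of the 9 genes that passed as lower, at -1.27 in 3-AT (adjusted p = 2.05e-07) and -0.41 in rich medium (adjusted p = 0.00207); the rich medium value was -0.25 (adjusted p = 0.222) without the first rich medium monosome library. CPR7 did not pass in 3-AT (-0.26) or in rich medium (0.02). In all, 7 of the 9 genes were higher and 1 lower in 3-AT, beside 25.3% and 26.2% of 4694 genes. In rich medium 6 were higher and 1 lower, beside 25.9% and 25.8% of 5099 genes. With library totals, which moved the median of all genes by -0.46 in 3-AT and -0.58 in rich medium, SBA1 lost its call in 3-AT (0.15), STI1 (0.07), SBA1 (0.04) and CDC37 (0.03) lost theirs in rich medium, and AHA1 (-0.51) and CPR7 (-0.56) then passed as lower in rich medium.

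The 2 related ATPase activators went apart in this ratio. AHA1 stood at a log2 ratio of 1.21 (adjusted p = 3.05e-08) in 3-AT and of 0.07 (adjusted p = 0.631) in rich medium, a change of 1.26 (SE 0.15, adjusted p = 3.89e-15, edgeR's interaction of assay and medium). The ratio of HCH1 changed by -0.75 (SE 0.19, adjusted p = 0.00103). HSP82 changed by -0.32 (SE 0.12, adjusted p = 0.0390), which missed the threshold without the first rich medium monosome library (-0.30, adjusted p = 0.129), without the first rich medium mRNA library (-0.35, adjusted p = 0.0695) or without the second 3-AT monosome library (-0.22, adjusted p = 0.115). Among 5160 genes 16.9% changed upwards and 12.1% downwards, and among the 9 genes 1 did and 2 did. The changes of AHA1 and HCH1 passed the threshold in all 13 alternative fits, where AHA1 ran from 1.03 to 1.46 and HCH1 from -0.90 to -0.72. The other 5 genes did not pass, with -0.17 for CPR7 (14 and 10 monosome footprints in 3-AT), 0.09 for SBA1, 0.13 for HSC82, 0.18 for STI1 and 0.18 for CPR6, nor did CDC37 (0.40, adjusted p = 0.105).

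Disome footprints of HSC82 were many in rich medium and few in 3-AT. HSC82 had 2839 and 2714 disome RPM in 3-AT, against 66806 and 42787 RPM in rich medium, where it was the gene with the most disome footprints in both libraries. HSP82 had 7524 and 7185 RPM in 3-AT, from 159 and 135 footprints, against 1203 and 1469 RPM in rich medium, from 57 and 51 footprints. The 2 copies thus separated the media without overlap and in opposite directions. HSC82 disome footprints fell by 4.95 on the log2 scale (SE 0.39, adjusted p = 4.02e-09) and HSP82 rose by 1.85 (SE 0.36, adjusted p = 9.77e-05, edgeR). HSC82 stood 50th to 51st among all genes by disome count in 3-AT, and its change lay between -5.61 and -4.30 in all 9 alternative fits, each past the threshold.

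Among the co-chaperones, CPR6 had 76 and 59 disome footprints in 3-AT against 14 and 12 in rich medium, and rose by a log2 fold change of 2.77 (SE 0.43, adjusted p = 8.58e-06). AHA1 had 16 and 16 footprints in 3-AT against 3 and 6 in rich medium (2.21, SE 0.56, adjusted p = 0.00123), and STI1 had 79 and 78 against 61 and 36 (1.12, SE 0.37, adjusted p = 0.00856). These 3 genes did not overlap between media by count, although the tables of rich medium are larger. The share of all genes without such overlap was not counted. The call of AHA1 was lost without the first rich medium disome library (1.51, adjusted p = 0.0786) and that of STI1 without the second (0.59, adjusted p = 0.240). SBA1 had 22 and 16 footprints in 3-AT against 31 and 17 in rich medium, with a log2 fold change of 0.08 (SE 0.48, adjusted p = 0.876). CPR7, HCH1 and CDC37 had too few footprints to be tested. CPR7 had 0 and 1 in 3-AT against 2 and 1 in rich medium, HCH1 1 and 0 against 1 and 1, and CDC37 2 and 2 against 10 and 13. A count of 0 allows up to 142 RPM in the first and 160 RPM in the second 3-AT disome library, counting error only. Of the 6 genes tested 4 were higher and 1 lower, beside 37.0% higher and 43.1% lower of 624 genes. These tested genes are those with enough footprints in at least one medium.

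Disome footprints relative to monosome footprints were compared next. This asks whether a message took a larger or smaller share of the disome libraries than of the monosome libraries, relative to other genes. A high ratio does not mean that disomes outnumbered monosomes on the message. In 3-AT, HSC82 had 2839 and 2714 disome RPM against 6272 and 6223 monosome RPM, a log2 ratio relative to the other genes of -1.32 (SE 0.24, adjusted p = 0.000210). In rich medium it had 66806 and 42787 disome RPM against 6835 and 6437 monosome RPM, a log2 ratio of 3.31 (SE 0.24, adjusted p = 3.73e-39), 13th from the top of 3089 genes. The 2 assays did not overlap in either medium, and the disome share was the lower one in 3-AT and the higher one in rich medium. The change between media was -5.06 on the log2 scale (SE 0.38, adjusted p = 5.42e-37, edgeR's interaction of assay and medium). It ran from -5.49 to -4.22 in 15 alternative fits and was past the threshold in each, including one with a spread of its own for each group (-5.01, adjusted p = 5.07e-09). The offset for stretches that occur once is among the 15 but cancels between media, so it could not move this value. HSP82, the near-identical copy, had log2 ratios of 0.13 (SE 0.22, adjusted p = 0.695) in 3-AT and 0.10 (SE 0.21, adjusted p = 0.788) in rich medium, with a change of -0.39 (SE 0.35, adjusted p = 0.485). None of these 3 values of HSP82 kept its sign under every alternative.

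Of the co-chaperones in 3-AT, AHA1 had few disomes for its monosomes, with 757 and 852 disome RPM against 4058 and 3300 monosome RPM (log2 ratio -2.35, SE 0.30, adjusted p = 2.88e-06, past the threshold in all 11 alternatives). SBA1 was the only one of the 8 genes tested that was higher, with 1041 and 852 disome RPM against 265 and 338 monosome RPM (1.51, SE 0.34, adjusted p = 0.00180). Its call was lost without the first 3-AT disome library (1.21, adjusted p = 0.0925) or the first 3-AT monosome library (1.08, adjusted p = 0.0756). The lower genes were HSC82, AHA1, HCH1 (-3.56, SE 0.98, adjusted p = 0.00837, from 1 and 0 disome footprints) and CDC37 (-1.85, SE 0.64, adjusted p = 0.0309, from 2 and 2 footprints). The call of HCH1 was lost without the second 3-AT disome library (-2.67, adjusted p = 0.0811), and that of CDC37 without the first (-1.92, adjusted p = 0.127) or the second (-1.93, adjusted p = 0.109). HCH1 had 0 footprints in 1 of these libraries, so its fitted value depends on the prior count and is no bound. This makes 1 higher and 4 lower of 8, beside 11.4% higher and 20.2% lower of 2275 genes, with a median of -0.59 over the 8 genes and -0.39 over all. HCH1 passed the filter on low counts through its 70 and 68 monosome footprints alone. CDC37 had 86 and 78 monosome footprints beside its few disome footprints. With so few disome footprints neither gene could well pass as higher, so the count of lower genes is a description. STI1 (0.37) and CPR6 (0.34) did not pass, and CPR7, with 0 and 1 disome footprints, was not tested.

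In rich medium, SBA1 had 654 and 490 disome RPM against 361 and 362 monosome RPM (log2 ratio 0.95, SE 0.26, adjusted p = 0.00248), and STI1 had 1287 and 1037 against 901 and 855 (0.68, SE 0.20, adjusted p = 0.00531). HCH1, with 1 and 1 disome footprints, was at -2.33 (SE 0.84, adjusted p = 0.0343). It passed the filter on low counts through its 108 and 101 monosome footprints alone, and could not well pass as higher. None of these 3 calls held with every library left out in turn, and the count over all genes also fell, to 153 without the first and 161 without the second rich medium monosome library, against 570 with all. Without the first rich medium disome library, SBA1 was at 0.49 (adjusted p = 0.458), STI1 at 0.29 (adjusted p = 0.515) and HCH1 at -2.31 (adjusted p = 0.227), and without the second HCH1 was at -2.57 (adjusted p = 0.122). Without the first rich medium monosome library SBA1 was at 0.90 (adjusted p = 0.202) and STI1 at 0.68 (adjusted p = 0.294), and without the second SBA1 was at 0.91 (adjusted p = 0.202) and STI1 at 0.61 (adjusted p = 0.345). In all, 3 of the 9 genes were higher and 1 lower, beside 9.03% higher and 9.42% lower of 3089 genes, with a median of 0.10 over the 9 genes and -0.37 over all. CPR6 (-0.66), AHA1 (-0.70), CPR7 (-0.65) and CDC37 (0.50) did not pass. With all libraries kept, STI1 did not pass and CPR6 did with library totals (0.42, adjusted p = 0.116, and -0.93, adjusted p = 0.00890) and with no filter on low counts (0.47, adjusted p = 0.135, and -0.87, adjusted p = 0.0316).

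The change of the disome over monosome ratio with 3-AT passed the test for 3 of 8 genes, all lower, beside 2.72% higher and 14.8% lower of 2871 genes, with a median of -1.20 over the 8 genes and -0.77 over all. Beside HSC82 these were CDC37 (-2.78, SE 0.76, adjusted p = 0.00298) and AHA1 (-2.08, SE 0.72, adjusted p = 0.0283). CDC37 missed the threshold without the second 3-AT monosome library (-2.14, adjusted p = 0.0549), and AHA1 without that library (-1.61, adjusted p = 0.104), without the second rich medium monosome library (-1.41, adjusted p = 0.180) or without the second rich medium disome library (-1.44, adjusted p = 0.513). HCH1 (-1.66, SE 1.87), SBA1 (0.14) and CPR6 (0.57) did not pass. STI1 (-0.73, adjusted p = 0.139) passed without the second rich medium disome library (-1.02, adjusted p = 0.0256). Scaling by library totals moved the median of all genes by 0.81 and DESeq2's size factors moved it by 0.44. With library totals CDC37 (-1.95, adjusted p = 0.0805) and AHA1 (-1.24, adjusted p = 0.230) did not pass and CPR6 (1.41, adjusted p = 0.00729) did. AHA1 also did not pass with DESeq2's size factors (-1.62, adjusted p = 0.105) or in the test of DESeq2 (-1.62, adjusted p = 0.0545). In the latter CPR6 passed (1.04, adjusted p = 0.0320).

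**Figure D3:**
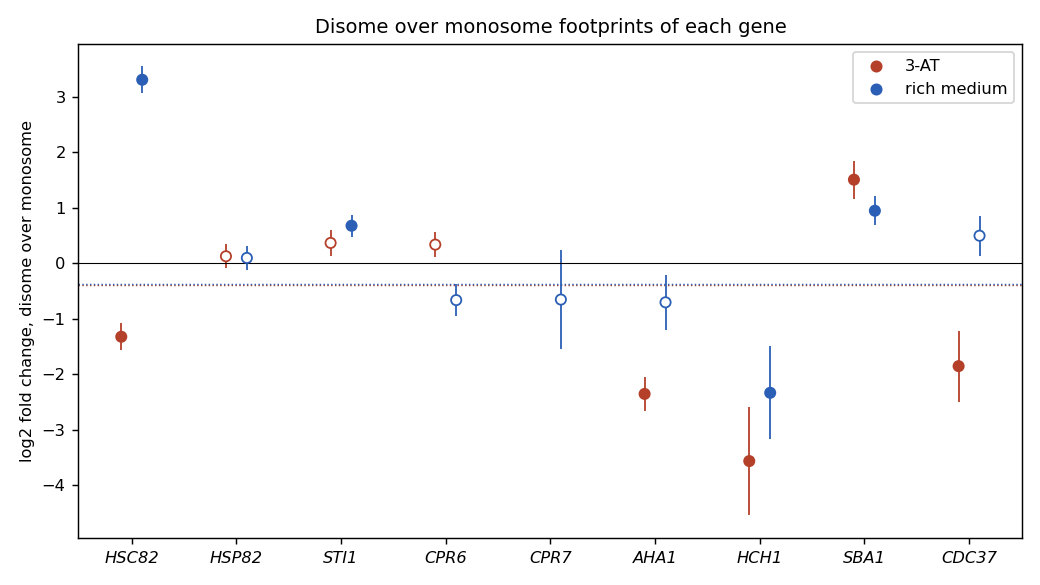
Log2 fold change of disome over monosome footprints of each gene, in 3-AT and, to its right, in rich medium, with bars of 1 SE on either side, open points where the adjusted p missed 0.05 and dotted lines at the median of all genes. HSC82 lies at -1.32 in 3-AT and 3.31 in rich medium, SBA1 at 1.51 in 3-AT and 0.95 in rich medium, HSP82 at 0.13 and 0.10, and CPR7 was not tested in 3-AT.

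The balance between the 2 Hsp90 copies can be read inside each library, without any scaling between libraries. In mRNA-seq, the ratio of HSC82 to HSP82 counts was 0.961 and 0.971 in 3-AT, against 5.55 and 5.91 in rich medium. For monosomes it was 1.02 and 1.05 in 3-AT, against 4.59 and 4.39 in rich medium. For disomes it was 0.377 and 0.378 in 3-AT, against 55.5 and 29.1 in rich medium. Media did not overlap in any assay, and the copies were near parity in 3-AT except among disomes, where HSP82 had 2.65 footprints for each one of HSC82 in both libraries. In counting error alone, the rich medium disome ratios had 95% intervals of 42.8 to 72.1 and 22.1 to 38.5, which do not overlap each other. The ratio of AHA1 to HCH1 was 15.5 and 11.2 for monosomes in 3-AT against 1.62 and 1.26 in rich medium, and 2.38 and 2.40 for mRNA in 3-AT against 1.02 and 1.04. These are ratios of counts, and AHA1 is the longer gene. Per coding length, this ratio was 6.81 and 4.91 for monosomes in 3-AT against 0.711 and 0.552 in rich medium. For mRNA it was 1.044 and 1.055 per length in 3-AT against 0.449 and 0.457. The ratio of CPR6 to CPR7 was 46.2 and 55.6 for monosomes in 3-AT against 8.48 and 9.24 in rich medium, and 20.02 and 15.5 for mRNA in 3-AT against 4.06 and 3.96. In each of the 3 pairs the gene that gained on its relative in mRNA in 3-AT (HSP82, AHA1 or CPR6) gained on it in monosomes too.

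**Figure D4:**
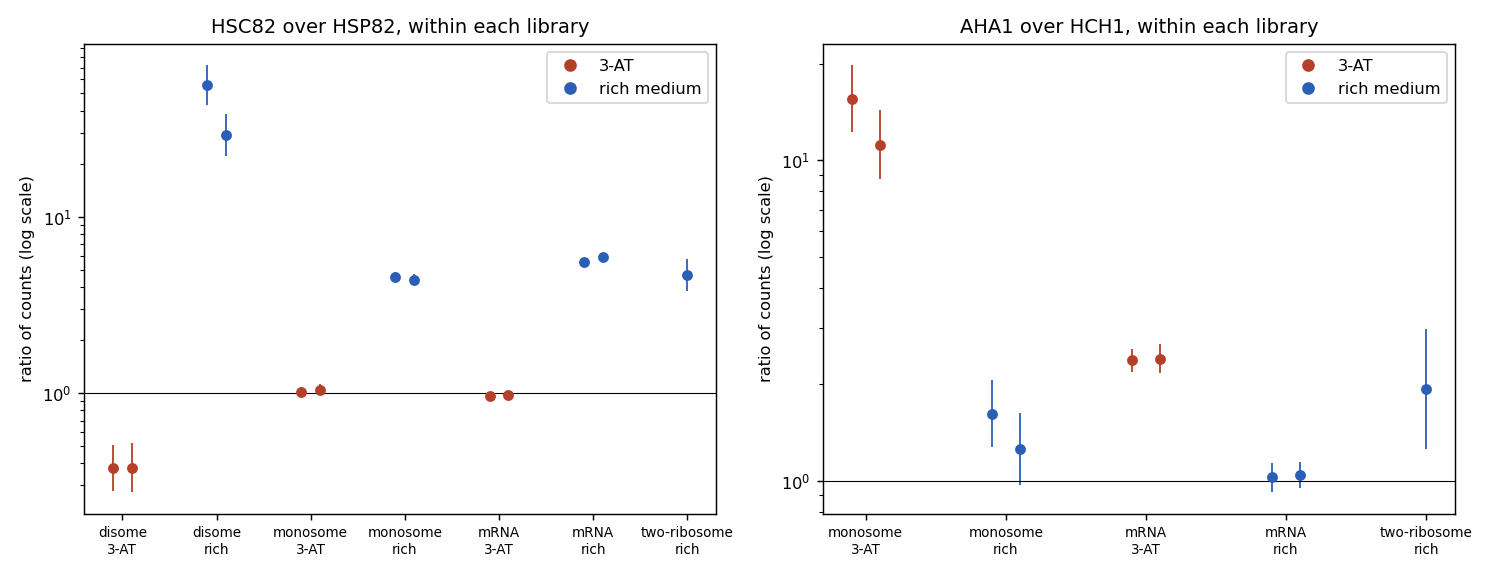
Ratio of counts within each library for HSC82 over HSP82 (left) and AHA1 over HCH1 (right, without disomes), on a log scale, with 1 point per library, 3-AT to the left of rich medium, the 2-ribosome library at the right end, 95% counting intervals and a line at 1. The HSC82 over HSP82 disome ratio is 0.377 and 0.378 in 3-AT and 55.5 and 29.1 in rich medium. Counts are not divided by coding length.

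Among 5 other co-chaperones of Hsp90 (CNS1, SGT1, PPT1, TAH1 and PIH1), mRNA of 2 rose in 3-AT and that of 1 fell. SGT1, which links Hsp90 to kinetochore assembly, had the largest increase (log2 fold change 1.06, SE 0.14, adjusted p = 1.33e-11) and PIH1, of the R2TP complex, the smaller one (0.67, SE 0.18). PPT1, a protein phosphatase that acts on Hsp90, fell by 1.70 on the log2 scale (SE 0.16, adjusted p = 2.02e-18). Monosome footprints rose for SGT1 (0.88, SE 0.34) and fell for PPT1 (by 1.12, SE 0.19), and none of the 5 had enough disome footprints for a test between media. Of the 15 listed targets of Hsf1 outside the 9 genes, mRNA of 12 rose and of 3 fell, beside 37.7% and 37.7% of all genes, with a median log2 fold change of 1.57 against 0.01 over all. The largest increase was that of BTN2, a sorting factor for misfolded proteins (4.58, SE 0.10), and the smallest that of the Hsp40 gene YDJ1 (0.50, SE 0.07). The genes that fell were HSP60 (by 1.06, SE 0.07) and HSP10 (by 0.34, SE 0.09), which make the mitochondrial chaperonin, and SSA2 (by 0.35, SE 0.06), a constitutive cytosolic Hsp70. In monosomes 11 of the 15 rose and 3 fell, beside 33.8% and 31.7% of all genes, with a median of 1.93 against 0.03, and changes ran from BTN2 (5.03) and SSA1, an inducible Hsp70 gene (0.73), down to HSP10 (-0.79) and HSP60 (-1.79). In disomes 6 rose and 4 fell among 11 tested, beside 37.0% and 43.1% of all genes, with a median of 1.62 against -0.14, and changes ran from FES1, an exchange factor of Hsp70 (5.53), and the disaggregase HSP104 (1.62) down to SSA1 (-1.28) and the coactivator MBF1 (-4.49). Disome over monosome ratios of these targets passed as lower in 3-AT than in rich medium for 7 of 15 and as higher for 0 of 15, beside 14.8% and 2.72% of 2871 genes, with a median of -1.42 against -0.77. The balance over all genes moved with the scaling, with 78 higher and 426 lower here and 191 higher and 182 lower with library totals, under which the targets were not counted. HSF1 itself rose in mRNA (log2 fold change 1.11, SE 0.11, adjusted p = 6.85e-18), and had 0.33 (SE 0.28, adjusted p = 0.308) in monosomes. Its monosome over mRNA ratio changed by -0.83 (SE 0.29, adjusted p = 0.0214).

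Across the 12 libraries, 130 genes whose count was 10 or more in every library were ranked by the likeness of their log2 level to each Hsp90 gene. The libraries fall into 3 assays and 2 media, so these correlations are descriptions. HSC82 was most like OYE2, an NADPH oxidoreductase (Pearson r = 0.85), PFK2, a subunit of phosphofructokinase (0.85), and GND1 of the pentose phosphate pathway (0.84), and HSP82 stood 100th in its list (-0.38). HSP82 was most like CPR6 (0.96), STI1 (0.96) and HIS4, an enzyme of histidine synthesis (0.95). SBA1 stood 72nd in its list (0.24), and CPR7, AHA1, HCH1 and CDC37 were not among the 130 genes. In turn, HSP82 stood 3rd in the list of CPR6 and 7th in that of STI1, which was most like HIS4 (0.98).

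The 2-ribosome library gives footprints on transcripts that carry 2 ribosomes, digested after those transcripts were collected. It had no replicate, and values are compared with the mean of the 2 rich medium monosome libraries for 3876 genes with at least 10 footprints in each. Its footprints are of 28 to 29 nt, while the monosome footprints are of 20 to 30 nt. The ratios therefore set unlike length classes side by side, and the part of this difference was not tested. HSC82 had 495 footprints, or 1232 RPM, against 6835 and 6437 monosome RPM, a ratio of 0.186 (95% interval 0.170 to 0.203, counting error only). HSP82 had 106 footprints, or 264 RPM, against 1491 and 1466 RPM, a ratio of 0.178 (0.148 to 0.216). The ratios of the copies were alike within counting error, and the library's own ratio of HSC82 to HSP82 was 4.67, between the 4.59 and 4.39 of monosomes and the 5.55 and 5.91 of mRNA in rich medium. STI1 (0.249), CDC37 (0.218), CPR7 (0.292, 8 footprints), SBA1 (0.358) and CPR6 (0.455) were also more than 2-fold lower, while HCH1 (0.512) and AHA1 (0.698) were not. That makes 7 of the 9 genes more than 2-fold lower, beside 51.5% of all genes, and 0 more than 2-fold higher, beside 8.88%. The median ratio was 0.292 over the 9 genes and 0.482 over all. When ratios were divided by that median of all genes, 3 of the 9 genes stayed more than 2-fold lower.

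Both Hsp90 copies had footprints in and just before a stretch that they share, which held a larger part of those of HSC82. The most used A-site of HSC82, where the next tRNA enters, was codon 203, with 30 of 495 footprints (6.06%), and the stretch from codon 203 to 206 held 92 (18.6%, 95% Wilson interval 15.4% to 22.3%). The aligned stretch of HSP82 held 5 of 106 (4.72%, 2.03% to 10.6%). Just before it, codon 200 held 9 footprints of HSC82 and 4 of HSP82. Codons 201 and 202 held 14 and 6 of HSC82 and 0 of HSP82. The stretch from codon 203 to 206 was chosen from the HSC82 footprints, so the difference is a description and was not tested. Codon 203 was the most used A-site of HSC82 and held 2 footprints of HSP82. The 28-nt windows that a footprint with its A-site there would cover are shown with the A-site codon in capitals. They differ at 5 of 28 bases, and each occurs once among the coding sequences, so that discarded reads do not enter here.
HSC82, XIII:632946-632973, + strand: tctgaattcgttgctTACcctatccaac
HSP82, XVI:98007-98034, - strand: tctgagttcgtggccTACccaatccaat

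On 3 of the co-chaperones many footprints sat close together. HCH1 had 10 of 31 footprints at codon 56 (32.3%, 18.6% to 49.9%), SBA1 had 11 of 52 at codon 39 (21.2%, 12.2% to 34.0%), and AHA1 had 10 of 60 at codon 192 (16.7%, 9.31% to 28.0%). The median share of the largest position was 13.1% over 800 genes with at least 50 footprints. The intervals of SBA1 and AHA1 hold that median. Each position was chosen as the largest of its gene, so these shares are descriptions and were not tested. Within 5 codons of their largest position lay 58.1% of the footprints of HCH1, 53.3% of those of AHA1 and 40.4% of those of SBA1, against a median of 28.1% over the 800 genes and 24.4% for HSC82. CPR6, with 371 codons, had 10 of 110 footprints at codon 346 (9.09%) and 11.8% within 5 codons of it, below both medians. HCH1 falls short of the 50 footprints asked of those genes, and the window of 11 codons is a larger part of its 153 codons than of the longer genes. STI1 had its largest position at codon 226 (7 of 88 footprints), while CPR7, with 8 footprints, and CDC37, with 21, had theirs tied, at codons 278 and 344 (2 each) and at codons 82 and 201 (3 each). The windows of the largest positions of HCH1, SBA1 and AHA1, again with the A-site codon in capitals, are given for comparison.
HCH1, XIV:108617-108644, + strand: accggtgactccaacGTAtctcaaagga
SBA1, XI:220423-220450, + strand: gactgtgatgcccctGAGttaaccatta
AHA1, IV:893433-893460, + strand: aatgcacttccctctTCTacttcaactt

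Along the messages, the first 50 codons of SBA1 held 23 of 52 footprints (44.2%, 31.6% to 57.7%), where length alone would give 23.1%. Codon 39 held 11 of the 23; without it the share was 29.3% (17.6% to 44.5%), an interval that holds the length share, and over 100 codons it was 46.2% against 46.3% by length. Those of HSC82 held 72 of 495 (14.5%, 11.7% to 17.9%), against 7.09% by length, and those of HSP82 9 of 106 (8.49%, 4.53% to 15.3%), against 7.05%. The other 6 genes were below their length share, with 0 of 60 in AHA1, where 14.3% would follow from length. The median over all genes with at least 50 footprints was 7.90%, against a length share of 14.8%. In the first 30 codons HSC82 had 3 of 495 footprints (0.606%), SBA1 1 of 52 and HSP82 9 of 106, so that HSP82 alone stayed above its length share. Hsp90 has a charged linker between its first and middle domains, in which glutamate, aspartate and lysine are frequent. In HSC82 the 50-codon window richest in these residues ran from codon 210 to 259 (38 of 50) and held 8 of 495 footprints (1.62%, 0.821% to 3.16%), against 7.09% by length. In HSP82 it ran from codon 214 to 263 (40 of 50) and held 4 of 106 (3.77%, 1.48% to 9.30%), against 7.05%. Of the 50 codons in each window, 14 lie in 28-nt stretches that are not unique, whose reads were discarded.

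**Figure D5:**
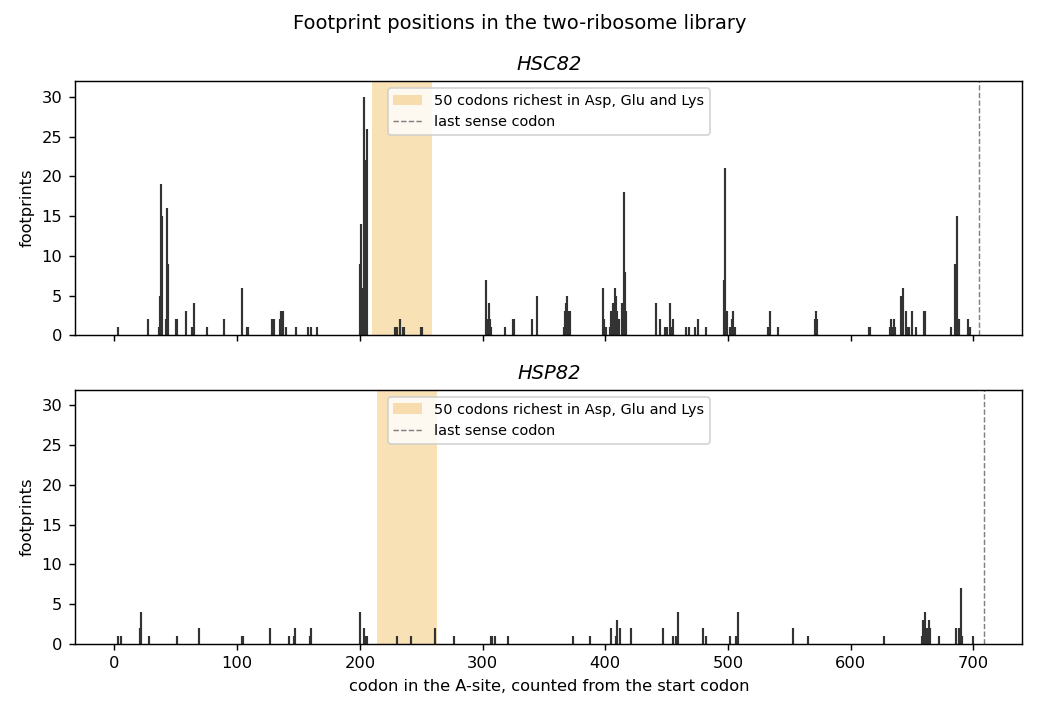
Footprints of the 2-ribosome library at each codon of HSC82 (upper panel) and HSP82 (lower panel), by the codon in the A-site counted from the start codon, with the 50 codons richest in aspartate, glutamate and lysine shaded and the last sense codon dashed. HSC82 reaches 30 footprints at codon 203, while HSP82 reaches 7 at codon 690.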

How the data were processed

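Disomes, monosomes and mRNA of cells in 3-AT and in rich medium (2 libraries each, assigned by their labels) and 1 library of transcripts with 2 ribosomes were analysed. The tables hold read counts as deposited by the authors, whole numbers per gene or, for the last library, per A-site position, without normalization. By the methods, adaptors were trimmed with cutadapt 1.16, rRNA reads removed with Bowtie 1.2.2, and the rest aligned to coding sequences of R64 with TopHat2 2.1.1, discarding multiple alignments. The methods say that reads of one length, sequence and UMI (random tag) were counted once, without naming the deposited tables. Each table holds one length class, and a gene not listed was given a count of 0. The totals lie above the uniquely mapped reads that the paper gives for some libraries and below them for others. They are therefore not taken as library depth.

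The test was that of edgeR 4.0.16 under R 4.3.3 (counts, TMM factors, filterByExpr by group, quasi-likelihood F test, Benjamini-Hochberg adjusted p below 0.05 over all genes tested), on the 4 libraries of a comparison or the 8 of an interaction. The fit gives a gene 1 spread in all its libraries, although disome replicates varied more. SEs were computed from the F statistic. The scripts were tested on simulated data. The methods call the replicates biological, without naming cultures, so p-values measure the spread between these libraries. Replicate numbers were not used to pair the libraries in the main fits. Statements that libraries do not overlap describe the named genes only, and how many of all genes do the same was not counted. Intervals are 95% and, like the limit of 3 counts for a count of 0, cover counting error only. Alternatives were DESeq2 1.42.0 and its size factors, library totals, no filter on low counts, each replicate left out, a replicate block, limma 3.58.1 (voom) with a spread per group, and an offset for stretches that occur once. Sequences were read from the RefSeq copy of R64, whose coding lengths were checked against the positions. Python 3.11.15, pandas 2.3.3, scipy 1.17.1, Biopython 1.88 and matplotlib 3.10.9 were used for the rest.

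The text names all 9 genes in every comparison, the most and least changed of the called genes in the lists of other co-chaperones and Hsf1 targets for mRNA, monosomes and disomes, HSF1, the 3 genes most like each Hsp90 copy, marker genes of the strains (LEU2 was not analysed here), and the largest position of each gene. The 9 genes and these lists were chosen with earlier results of these data known.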

Additional observations from a re-analysis of the deposited data

Results flagged for a closer look

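For 6 values the 2 media differed by the interaction test of edgeR. The disome over monosome ratio changed with 3-AT by -5.06 for HSC82, by -2.08 for AHA1 and by -2.78 for CDC37 on the log2 scale. The monosome over mRNA ratio changed by -0.32 for HSP82, by 1.26 for AHA1 and by -0.75 for HCH1. AHA1 is the only one of the 9 genes in both sets, with more footprints per mRNA and, less firmly, fewer disomes per monosome in 3-AT. The latter rests on 3 and 6 disome footprints in rich medium. It did not pass with library totals (-1.24, adjusted p = 0.230) or with DESeq2 size factors (-1.62, adjusted p = 0.105). All genes had a median change of -0.77 in that ratio. Strain and medium differ along with 3-AT in each of the 6 values, and cannot be told apart from it.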

How the results depend on the processing

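The alternatives gave 793 values for the 9 genes across the comparisons. Of the 363 that leave out a replicate, 315 kept their direction and their side of the threshold, 29 lost the call, 1 gained it and 18 turned sign. Of the 430 others, 381 kept both, 31 lost the call, 5 gained it and 13 turned sign. A value that passed both ways with opposite signs was found 0 times. For disome over monosome in 3-AT, 5 of the 9 genes passed, against 3 with DESeq2 and 2 to 3 with a replicate left out, and over all genes 718, against 415 with DESeq2, 453 with a spread per group and 223 to 383 with a replicate left out. In rich medium, 4 genes passed, against 2 with the replicate block and 1 with a spread per group, and 1 to 3 with a replicate left out. Over all genes this count was 570, against 403 with the replicate block, 313 with a spread per group and 153 to 383 with a replicate left out. For the change of that ratio, 3 genes passed, against 1 to 3 with a replicate left out, and over all genes 504, against 276 to 407. For monosomes, 3-AT over rich medium, 8 genes passed, against 5 with DESeq2 and 5 to 8 with a replicate left out. For disomes, 500 of all genes passed, against 845 with no filter on low counts. For monosome over mRNA, 2414 genes passed in 3-AT and 2637 in rich medium, against 1296 in 3-AT and 1558 in rich medium with DESeq2. In the 2-ribosome library, 7 genes were past 2-fold, against 3 after division by the median ratio, and 2341 of all genes, against 1038 with at least 50 monosome footprints. For the first codons, 3 of the 9 genes were above their length share in the first 50 and 1 in the first 30. Replicate numbers only name the libraries (correlations of replicate differences ran from -0.027 to 0.033), and the replicate block changed, beside the calls of STI1 and HCH1 in disome over monosome in rich medium, that of CDC37 in 3-AT (-1.85, adjusted p = 0.0770).

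Sign turns were as follows. HSP82 in disome over monosome went to -0.08 (no filter), -0.07 (offset for stretches that occur once) and, with a replicate left out, -0.18 to 0.17 in 3-AT. In rich medium it went to -0.16 (library totals), -0.11 (no filter), -0.10 (offset) and, with a replicate left out, -0.06 to 0.09. Its change went to 0.07 (DESeq2 size factors), 0.44 (library totals), 0.07 (DESeq2) and, with a replicate left out, -0.59 to 0.26. The change of STI1 went to 0.10 (library totals), and that of SBA1 ran from -0.18 to 0.92 with a replicate left out. CDC37 mRNA went to 0.06 (library totals), and SBA1 disomes to -0.13 (no filter) and -0.49 to 0.63 with a replicate left out. Monosome over mRNA in rich medium went to -0.56 for CPR7 and -0.51 for AHA1 with library totals, and CPR7 ran from -0.12 to 0.12 with a replicate left out. The change of monosome over mRNA ran, with a replicate left out, from -0.03 to 0.20 for HSC82, from -0.46 to 0.02 for CPR7 and from -0.08 to 0.20 for SBA1. The cause of these turns was not tested.

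Scaling moved the direction of calls over all genes. With library totals the share of calls that were higher was 30.4% against 49.0% for disome over monosome in rich medium, 51.2% against 15.5% for its change (29.8% with DESeq2 size factors), 63.7% against 50.0% for mRNA, 62.2% against 51.6% for monosomes, and 24.2% against 49.1% for monosome over mRNA in 3-AT and 11.99% against 50.2% in rich medium. The disome tables limit the rest: with no filter on low counts, CDC37 disomes had -2.29 (adjusted p = 0.0369), HCH1 -0.69 (adjusted p = 0.843) and CPR7 -1.21 (adjusted p = 0.688) between media.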
